A study of Mus musculus with 6 samples.

Results

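The genes described here encode 9 receptors for inflammatory chemokines and chemoattractants: *Cxcr3*, *Cxcr6*, *Ccr1*, *Ccr2*, *Ccr6*, *Ccr9*, *Cxcr2*, *Ccrl2* and *Ackr3*. They were taken by gene symbol from the deposited tables of RNA-seq counts and FPKM. All 9 are among the 24394 gene symbols of the count table, and all 9 are among the 12424 genes that passed the filter on low counts and were tested. Not every receptor passed that filter in every group: *Ccr1* and *Ackr3* reached its level in both libraries of a group only in brain, *Ccr6* and *Ccr9* only in sham blood.

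The libraries came from CD8+CD122+CD49dlo T cells, which the study calls CD8+ TRLs (T regulatory-like cells), sorted by flow cytometry in samples of 500 to 1000 cells. All mice were labelled as WT animals of the C57BL/6NCrl background, 9 weeks old, and none carried a transgene or deletion according to the labels. The 3 groups were blood of mice with a sham operation, blood of mice with tMCAO (a transient block of the middle cerebral artery that models ischemic stroke) lasting 60 minutes, and brain of mice with the same tMCAO, all sampled 3 days after surgery with 2 libraries per group. It is not stated whether a library came from 1 mouse or from a pool, and p-values therefore measure the spread between these libraries only, which may be partly technical. There was no sham brain group, so tissue and surgery cannot be told apart where brain was compared with sham blood.

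Chemokine receptors are G protein-coupled receptors that steer leukocytes along gradients of small secreted proteins. CXCR3 and CXCR6 are typical of effector and memory T cells and bind CXCL9, CXCL10 and CXCL11 or the membrane-bound CXCL16, whereas CCR1 and CCR2 are best known on monocytes and CXCR2 on neutrophils. CCR6 and CCR9 guide lymphocytes to mucosal tissues and the gut. ACKR3 and CCRL2 are atypical receptors that bind a chemokine or chemoattractant without activating G proteins. After stroke, leukocytes that enter the ischemic brain meet many of these ligands.

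On the GRCm38 assembly (GENCODE M21 annotation), 5 of the 9 genes lie on chromosome 9. *Ccr9* (123678439 to 123784330), *Cxcr6* (123806475 to 123811760), *Ccr1* (123962124 to 123968692, minus strand) and *Ccr2* (124101950 to 124113557) follow one another with gaps of 22.1, 150.4 and 133.3 kb, and *Ccrl2* (111054486 to 111057519, minus strand) lies 12620.9 kb before *Ccr9*. *Cxcr3* is on chromosome X (101731535 to 101734269, minus strand), *Ccr6* on chromosome 17 (8236043 to 8257141), and *Cxcr2* (74153989 to 74161246) and *Ackr3* (90203980 to 90216751) are on chromosome 1. *Cxcr6* lies within *Fyco1*, which is on the opposite strand and had 135 to 449 counts per library, and the *Ccr9* model overlaps *Lztfl1* with 291 to 2029 counts, also on the opposite strand. Whether counting used the strand was not stated.

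The 250 bases before the RefSeq start site (GRCm38.p6) are shown for *Cxcr3* and *Cxcr6*, which had the most RNA per length in blood and were called lower in both brain comparisons (with a direction that turned under T cell scaling), and for *Ccr1* and *Ccrl2*, which had the most RNA per length in brain. Each is read 5′ to 3′ along the gene's own strand, at chrX:101734148-101734397 (minus), chr9:123806227-123806476 (plus), chr9:123968693-123968942 (minus) and chr9:111057519-111057768 (minus, the most upstream of 3 start sites of *Ccrl2*). Capitals mark matches to the motifs searched below.
Cxcr3: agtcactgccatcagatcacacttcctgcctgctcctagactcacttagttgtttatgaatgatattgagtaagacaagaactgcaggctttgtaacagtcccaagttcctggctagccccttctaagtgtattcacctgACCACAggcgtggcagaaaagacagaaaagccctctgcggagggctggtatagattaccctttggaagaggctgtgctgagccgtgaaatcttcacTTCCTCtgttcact
Cxcr6: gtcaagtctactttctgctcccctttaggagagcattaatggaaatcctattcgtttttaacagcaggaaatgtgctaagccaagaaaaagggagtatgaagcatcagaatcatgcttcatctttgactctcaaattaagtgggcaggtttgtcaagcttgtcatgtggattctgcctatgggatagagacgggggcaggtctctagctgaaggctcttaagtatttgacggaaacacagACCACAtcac
Ccr1: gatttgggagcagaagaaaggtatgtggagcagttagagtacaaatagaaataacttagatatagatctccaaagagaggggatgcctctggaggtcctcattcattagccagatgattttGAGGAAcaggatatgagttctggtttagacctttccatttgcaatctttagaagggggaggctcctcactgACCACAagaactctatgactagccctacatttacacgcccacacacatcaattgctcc
Ccrl2: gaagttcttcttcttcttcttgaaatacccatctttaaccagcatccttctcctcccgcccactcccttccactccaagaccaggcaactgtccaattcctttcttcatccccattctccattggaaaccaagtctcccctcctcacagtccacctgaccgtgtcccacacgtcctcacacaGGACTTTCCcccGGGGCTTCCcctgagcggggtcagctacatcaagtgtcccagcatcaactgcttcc
Both strands of all 9 windows were searched for 5 short motifs: AGGTGT (T-box factors), TGTGGT (RUNX), GAGGAA (PU.1), GGNNNTTCC (NF-kappaB) and TTCNNNGAA (STAT), and no matches overlapped.

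The RUNX letters, which occur in 14% of all 32817 mouse promoter windows of this length, were found in *Cxcr6* (from -10 to -5 relative to the start site), *Cxcr3* (-110 to -105), *Ccr1* (-58 to -53) and *Ackr3* (-84 to -79). The PU.1 letters, found in 23.3% of windows, were present in *Cxcr3*, *Ccr1*, *Ccr6* and *Cxcr2*. *Ccrl2* alone among the 9 held the NF-kappaB letters, at -68 to -60 and at -56 to -48, against 15.7% of windows. The STAT letters (7.01% of windows) were matched at 2 places in *Ccr6*, the T-box letters (11.8% of windows) in *Cxcr2*, and *Ccr2* and *Ccr9* held none of the 5. These matches are descriptions of letters, and none of them was tested as a binding site.

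Counts on genes ranged from 13793081 to 17149924 per library. The genes of the sort markers were well counted in blood, but in both brain libraries all 6 (*Cd3e*, *Cd8a*, *Cd8b1*, *Il2rb*, *Itga4* and *Ptprc*) lay below all blood libraries and were called lower in both comparisons, whereas under the T cell scaling described below *Itga4* and *Ptprc* were called higher against sham blood (both 4.22 on the log2 scale), *Cd8a* was still called lower (-1.51), and *Cd3e*, *Il2rb* and *Cd8b1*, at 0.25, 0.89 and -0.69, did not pass. *Cd8a*, for example, stood at 948 and 866 CPM (counts per 1000000 after TMM scaling, the unit of all levels below unless FPKM is named) in sham blood and at 2.30 and 2.19 CPM in brain. The summed level of 14 T cell identity genes was 10784 to 16195 CPM in blood and 60.9 and 85.6 CPM in brain, and the summed level of 15 monocyte and macrophage genes was 991 to 3412 CPM in blood and 33525 and 41510 CPM in brain. In bulk libraries such as these, fewer cells of a type and less RNA per cell cannot be told apart. The brain libraries are called by their label, with the marker levels given beside the receptors they move with. Because the T cell genes differed this much, a second scaling was run in which each library is set to the mean log2 count of the 14 T cell identity genes (T cell scaling). It raised the median log2 fold change of all tested genes by 7.16 in brain against sham blood and by 7.28 in brain against tMCAO blood, so under it a gene is read relative to the T cell genes. Replicates also differed in spread: 35.4% of tested genes were over 2-fold apart between the tMCAO blood libraries, against 14.9% in sham blood and 16.2% in brain.

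In blood after tMCAO, no receptor gene passed the test against sham blood, which required a Benjamini-Hochberg adjusted p under 0.05 in edgeR's quasi-likelihood test and a fold change over 2. The comparison asks which receptors circulating CD8+ TRLs alter after stroke. *Cxcr3* and *Cxcr6* were the receptors with the most RNA per length in blood and stood 1.55-fold and 1.95-fold above sham blood. *Ccr6*, with no count in 1 of the tMCAO blood libraries, stood 22.7-fold below it. The blood groups did not overlap for these genes. With 2 libraries per group such separation is frequent without any difference, and its share over all tested genes was not computed, here or for the groups below. By the test, 0.821% of all tested genes were called, all 102 of them lower in tMCAO blood. At an unadjusted p under 0.05, 4 of the 9 receptor genes passed (*Cxcr3*, *Cxcr6*, *Ccr1* and *Ccr6*), against 7.81% of all tested genes. DESeq2 called 1 receptor gene, *Ccr6*, lower, with an adjusted p of 0.0360 over all 6 libraries and 0.00975 in the pair of groups alone, and limma-voom called 0.

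In brain after tMCAO, the receptor genes separated into opposite patterns relative to sham blood: *Ccr1*, *Ccrl2* and *Ackr3* rose, and *Cxcr3* and *Cxcr6* fell, although the direction of *Cxcr3* and *Cxcr6* turned when libraries were scaled to their T cell genes. The other 4 did not pass the test. Over all tested genes, 30.6% were called in this comparison, 18.7% higher and 11.8% lower, against 3 higher and 2 lower of the 9 receptor genes. *Ccr1* and *Ackr3* reached the level of the low-count filter in both libraries of a group only in brain. They therefore entered the test through the group where they are high, which limits what their calls add to these counts. At an unadjusted p under 0.05, 7 of the 9 passed, against 43.2% of all tested genes. The split over all tested genes depended on the scaling, with 2326 higher and 1471 lower under TMM, 1605 and 2712 with library size alone and 11819 and 13 under T cell scaling. The median log2 fold change was 0.46 over the 9 receptor genes and 0.13 over all tested genes. Against tMCAO blood, which holds the surgery constant, *Ccr1*, *Ccrl2* and *Ccr2* rose and *Cxcr3* and *Cxcr6* fell, the latter pair again with a direction that turned under T cell scaling. Here 33.6% of all tested genes were called, 20.4% higher and 13.2% lower, 7 of the 9 receptor genes and 45.8% of all genes had an unadjusted p under 0.05, and the medians were 1.26 over the receptor genes and 0.05 over all tested genes. The same split was 2530 and 1640 under TMM, 1938 and 2866 with library size alone and 11856 and 9 under T cell scaling. Both brain comparisons use the same brain libraries, and their values for a gene are given side by side.

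**Figure D1:**
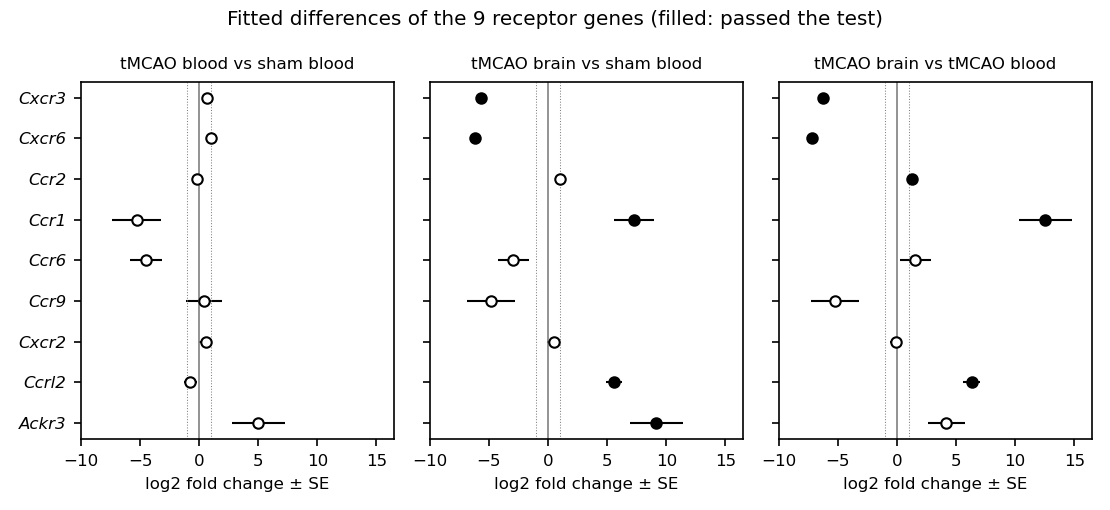
Fitted log2 fold changes of the 9 receptor genes from edgeR (x axis, points with standard errors as bars) in the 3 comparisons, with filled points for genes that passed the test and dotted lines at a 2-fold difference. No point is filled for tMCAO blood against sham blood, and 5 are filled in each brain comparison, where *Cxcr3* and *Cxcr6* lie left of 0 under this TMM scaling and right of 0 under T cell scaling.

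*Cxcr3* encodes the receptor for the interferon-induced chemokines CXCL9, CXCL10 and CXCL11. The sham blood libraries held 513 and 443 CPM, the tMCAO blood libraries 743 and 734 CPM and the brain libraries 9.12 and 9.96 CPM. Both tMCAO blood libraries lay above both sham blood libraries, and both brain libraries lay far below all 4 blood libraries. The log2 fold change between the blood groups was 0.63 ± 0.24 (SE; edgeR, adjusted p = 0.586), and this difference was positive in all 18 alternative settings tried but called in 0 of them. In brain *Cxcr3* fell by 5.65 ± 0.30 on the log2 scale against sham blood (edgeR adjusted p = 0.000172) and fell by 6.27 ± 0.31 against tMCAO blood (edgeR adjusted p = 0.000106), whereas under T cell scaling these differences were 1.53 (adjusted p = 0.0185) and 1.03 (adjusted p = 0.0940).

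*Cxcr6* encodes the receptor for CXCL16 and marks tissue-homing memory T cells. The gene stood at 512 and 372 CPM after sham surgery, at 664 and 1060 CPM in blood after tMCAO, and at 5.43 and 6.67 CPM in brain. The 3 groups did not overlap, and the tMCAO blood libraries were the farthest apart from each other. Between the blood groups the log2 fold change was 0.96 ± 0.33 (edgeR adjusted p = 0.488), and it passed the test in 1 of 18 alternatives, the one without tMCAO blood replicate 1, with a log2 fold change of 1.26 and an adjusted p of 0.0441. In brain *Cxcr6* fell by 6.19 ± 0.42 on the log2 scale against sham blood (edgeR adjusted p = 0.000232) and fell by 7.15 ± 0.43 against tMCAO blood (edgeR adjusted p = 0.000118), and under T cell scaling the same differences were 1.00 (adjusted p = 0.125) and 0.17 (adjusted p = 0.790).

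The 14 T cell identity genes, such as *Cd3e*, *Lat* and *Cd8a*, all fell in brain against sham blood (under TMM, T cell scaling sets their mean to 0 by construction), with a median log2 fold change of -6.98 and a range from -8.65 to -5.87, and *Cxcr3* lay above all 14 and *Cxcr6* above 12 of them. Against tMCAO blood, where the median of the 14 was -7.44, *Cxcr3* lay above 13 and *Cxcr6* above 8. Expressed per 1000 CPM of the summed T cell genes, *Cxcr3* was 47.1 and 41.1 after sham surgery, 65.6 and 45.3 in blood after tMCAO and 107 and 164 in brain. On that scale both brain libraries were above all 4 blood libraries. *Cxcr6* gave 47.0 and 34.5 for the sham libraries, 58.6 and 65.5 for blood after tMCAO, and 63.5 and 110 for brain, so that the lower brain library lay between the tMCAO blood libraries. The ratio of *Cxcr3* to *Cxcr6* was 0.692 to 1.19 in blood and 1.49 and 1.68 in brain.

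**Figure D2:**
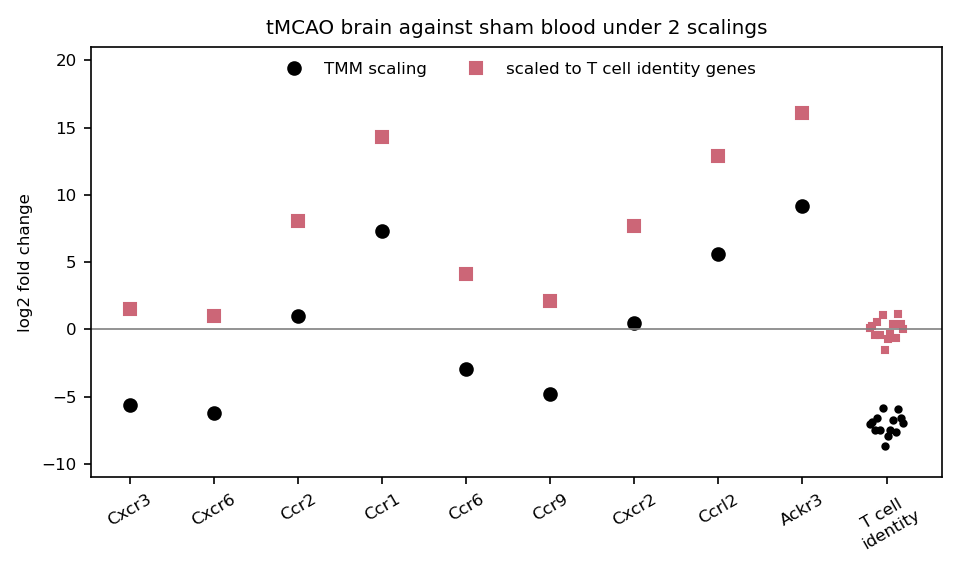
Log2 fold changes of tMCAO brain against sham blood (y axis) for the 9 receptor genes and the 14 T cell identity genes, with circles for TMM scaling and squares for libraries scaled to the T cell identity genes. *Cxcr3* and *Cxcr6* lie at -5.65 and -6.19 under TMM and at 1.53 and 1.00 under T cell scaling, which raised the median of all genes by 7.16, and *Ccr1*, *Ccrl2* and *Ackr3* lie above 0 under both.

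*Ccr2* encodes the receptor for CCL2 that draws monocytes out of the bone marrow and is also found on activated T cells. Sham blood held 215 and 221 CPM, tMCAO blood 213 and 160 CPM, and brain 607 and 285 CPM. The brain libraries were the highest of all 6 and did not overlap with either blood group, but 1 was far above the other. Against tMCAO blood *Ccr2* rose by 1.26 ± 0.39 on the log2 scale (edgeR adjusted p = 0.0440), and was called in 9 of 15 alternatives. The call was lost with edgeR on the pair of groups (1.25, adjusted p = 0.0855), without brain replicate 1 (log2 fold change 0.61, adjusted p = 0.281), without tMCAO blood replicate 2 (0.98, adjusted p = 0.136), without either sham blood library (adjusted p = 0.0935 and 0.0909) and with library size alone (0.75, adjusted p = 0.184). Against sham blood the log2 fold change was 1.03 ± 0.39 (edgeR adjusted p = 0.0833), and -0.22 ± 0.38 (edgeR adjusted p = 0.939) between the blood groups. The FPKM table gave *Ccr2* no line of its own, and its counts are uncertain as far as reads are shared with similar genes.

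*Ccr1* encodes a receptor for CCL3, CCL5 and related chemokines on monocytes and other myeloid cells. The sham libraries held 0 and 8.98 CPM, those of blood after tMCAO 0.207 and 0 CPM, and those of brain 948 and 459 CPM. In blood the gene was detected almost only in sham blood replicate 2, with 175 counts against 0, 4 and 0 in the other 3 libraries, and both brain libraries stood above all of these. In brain *Ccr1* rose by 7.29 ± 1.68 on the log2 scale against sham blood (edgeR adjusted p = 0.0175) and by 12.56 ± 2.24 against tMCAO blood (edgeR adjusted p = 0.00581), the latter resting on 4 counts in blood. Without sham blood replicate 2, which leaves that group at 0 counts, the first became 16.42 (edgeR adjusted p = 0.00219), and the second ranged from 11.59 to 16.42 over the libraries left out. The call against sham blood was lost with DESeq2 over all 6 libraries (adjusted p = 0.0559) and without either brain library (adjusted p = 0.0910 and 0.0630). Sham blood replicate 2 also held more RNA of some monocyte genes than replicate 1. These included *Cd14* at 29.6 against 0.0510 CPM, *Chil3* at 70.9 against 0.561 CPM and *Lyz2* at 1853 against 357 CPM. The sum over the 15 monocyte and macrophage genes was 3412 against 1909 CPM, a gap made almost wholly by *Lyz2*. Without these named genes the rest of the list summed lower in replicate 2. The part of the monocyte genes in the level of *Ccr1* was not tested. Between the blood groups the log2 fold change was -5.27 ± 2.07 (edgeR adjusted p = 0.592). It became 3.86 without sham blood replicate 2 and -6.27 without sham blood replicate 1. With all 6 libraries, 7 of the 15 monocyte and macrophage genes were called lower in tMCAO blood, against 0.821% of all tested genes. DESeq2 over all 6 libraries called 8 of the 15 lower and limma-voom 2. With edgeR on the pair of groups, 0 of all tested genes were called lower.

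**Figure D3:**
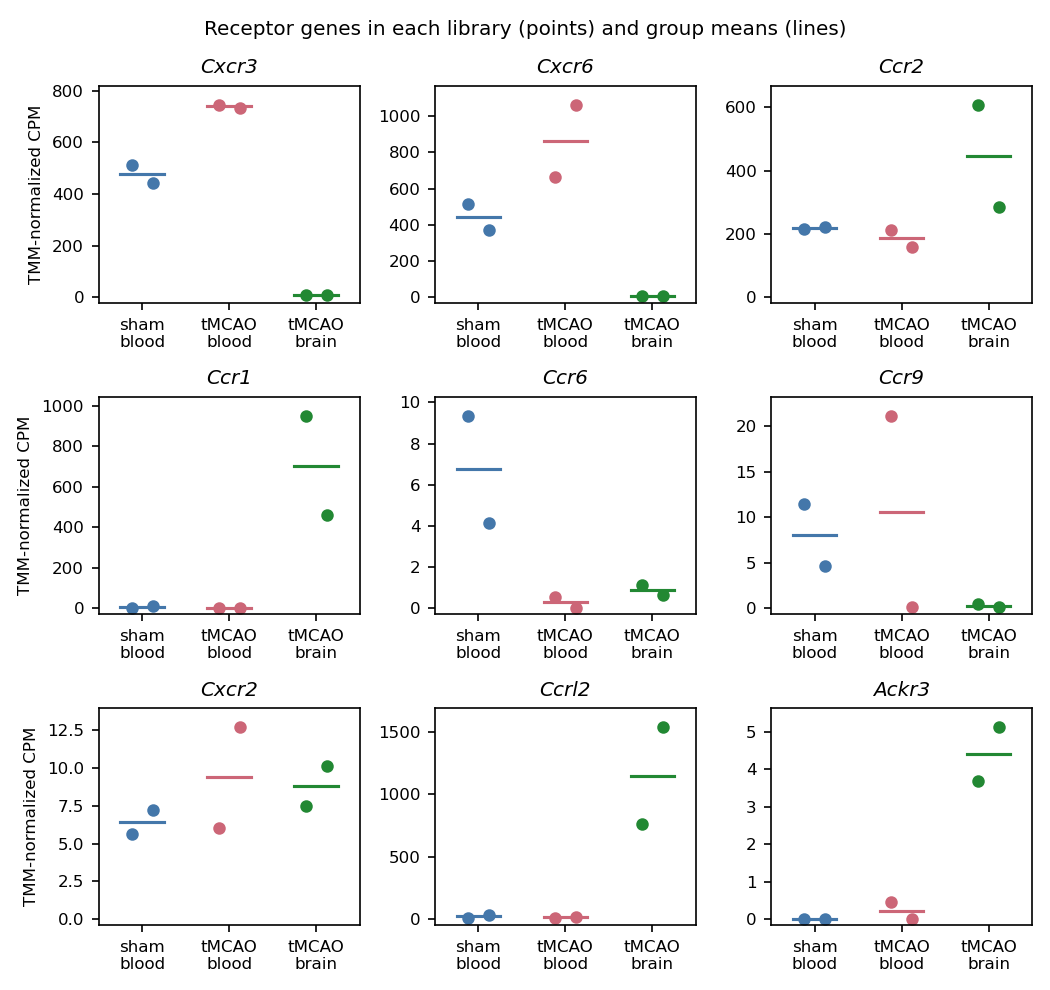
Level of each receptor gene in TMM-normalized CPM (y axis, starting near 0, scale differing between panels) in sham blood, tMCAO blood and tMCAO brain, with a point for each library and a line at the mean of the 2 libraries. *Ccr1* and *Ccrl2* are high in both brain libraries and near the baseline in blood, *Cxcr3* and *Cxcr6* show the opposite on this scale (a direction that turns under T cell scaling), and *Ccr9* in blood is high in a single tMCAO library.

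*Ccr6* encodes the receptor for CCL20 and is found on B cells and subsets of T cells. Its levels were low, with 9.33 and 4.16 CPM after sham surgery, 0.569 and 0 CPM in blood after tMCAO, and 1.11 and 0.640 CPM in brain. Both sham blood libraries were above the other 4, and the tMCAO blood and brain libraries lay close together. The log2 fold change was -4.50 ± 1.39 in tMCAO blood (edgeR adjusted p = 0.386) and -2.94 ± 1.29 in brain (edgeR adjusted p = 0.126) against sham blood, and 1.56 ± 1.33 in brain against tMCAO blood (edgeR adjusted p = 0.395). The first was called in 3 of 18 alternatives and the second in 7, of which T cell scaling gave the opposite direction (4.11, edgeR adjusted p = 0.0124). Leaving out 1 library moved the first between -9.72 and -3.58, the lowest of these without tMCAO blood replicate 1 (edgeR adjusted p = 0.0376), which leaves that group at 0 counts. The same omission raised the third to 6.78 (edgeR adjusted p = 0.0269), and T cell scaling raised it to 8.72 (edgeR adjusted p = 0.000203). B cell genes moved alongside: the sum of 13 B cell genes was 1522 and 903 CPM for the sham libraries, 33.0 and 93.6 CPM for blood after tMCAO, and 49.0 and 78.6 CPM for brain, and their part in the level of *Ccr6* was not tested.

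*Ccr9* encodes the receptor for CCL25, which directs T cells to the small intestine. The sham libraries held 11.5 and 4.62 CPM, blood after tMCAO 21.1 and 0.117 CPM, and brain 0.460 and 0.0914 CPM. The tMCAO blood libraries lay at the top and near the bottom of the whole range, with 408 and 2 counts, and overlapped with both other groups, while the brain libraries held 5 counts and 1 count and lay below sham blood. *Lztfl1*, which overlaps the GENCODE model of *Ccr9*, was also highest in tMCAO blood replicate 1, with 2029 counts against 523 in replicate 2. The RefSeq start site of *Ccr9*, whose promoter window ends at 123767210, lies beyond the end of *Lztfl1* (123717697). Whether any reads were shared was not tested. The log2 fold change was 0.40 ± 1.55 between the blood groups (edgeR adjusted p = 0.990), and without tMCAO blood replicate 1 it became -6.01 (adjusted p = 0.0601). In brain it was -4.83 ± 2.01 against sham blood (edgeR adjusted p = 0.110, called in 6 of 18 alternatives, among them DESeq2 over all 6 libraries with an adjusted p of 0.0158 and edgeR without either tMCAO blood library with 0.00930 and 0.00580, and 2.11 under T cell scaling) and -5.23 ± 2.02 against tMCAO blood (edgeR adjusted p = 0.0855). The latter was called in 5 of 17 alternatives, among them by DESeq2 over all 6 libraries and on the pair (adjusted p = 0.00852 and 0.00881) and by edgeR without tMCAO blood replicate 2 (-6.30, adjusted p = 0.00432), and it turned to 1.18 without tMCAO blood replicate 1 (edgeR adjusted p = 0.520) and to 1.81 under T cell scaling (edgeR adjusted p = 0.320).

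*Cxcr2* encodes the receptor by which neutrophils follow CXCL1 and CXCL2. It was present at a low level in every library, with 5.61 and 7.18 CPM after sham surgery, 6.05 and 12.7 CPM in blood after tMCAO, and 7.46 and 10.1 CPM in brain. The groups overlapped except that both brain libraries were above both sham blood libraries. No comparison passed the test: the log2 fold change was 0.55 ± 0.53 in tMCAO blood against sham blood (edgeR adjusted p = 0.850), 0.46 ± 0.54 in brain against sham blood (edgeR adjusted p = 0.550) and -0.09 ± 0.53 in brain against tMCAO blood (edgeR adjusted p = 0.912). The summed level of 10 neutrophil genes was 0.103 to 9.39 CPM in blood and 306 and 347 CPM in brain, and its part in the level of *Cxcr2* was not tested. *Cxcr1*, the neighboring receptor with shared ligands, had no count in any library.

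*Ccrl2* encodes an atypical receptor that presents the chemoattractant chemerin on the cell surface and is induced in activated myeloid cells. Sham blood held 13.4 and 33.9 CPM, tMCAO blood 9.31 and 19.1 CPM, and brain 757 and 1534 CPM. The blood groups overlapped, and both brain libraries were far above the highest blood library. *Ccrl2* rose in brain by 5.60 ± 0.69 on the log2 scale against sham blood (edgeR adjusted p = 0.00161) and rose by 6.33 ± 0.71 against tMCAO blood (edgeR adjusted p = 0.000954), and all 18 alternatives called it higher in both comparisons. Between the blood groups the log2 fold change was -0.74 ± 0.58 (edgeR adjusted p = 0.792). The sham blood library with the larger sum of monocyte and macrophage genes held more *Ccrl2*, whereas in brain the library with the larger sum (41510 against 33525 CPM) held less. In sham blood the gap in that sum was made almost wholly by *Lyz2*. Without *Cd14*, *Chil3* and *Lyz2* the rest of the list summed lower in the library with more *Ccrl2*. The brain library with the larger sum of microglia genes (17607 against 7963 CPM) held more *Ccrl2*. The part of these cell types in the level of *Ccrl2* was not tested.

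*Ackr3* encodes an atypical receptor that takes up CXCL12 and CXCL11. It had 0 counts in both sham blood libraries, 9 and 0 counts in tMCAO blood, and 40 and 56 counts in brain, or 3.68 and 5.12 CPM there. Both brain libraries were above all blood libraries. In blood the counts came from tMCAO replicate 1 alone, at least 3.03-fold above the floor of sham blood (edgeR adjusted p = 0.672). With 3 counts over the sham blood group as the floor that no count allows, brain was at least 57.4-fold higher than sham blood, and edgeR called the gene (adjusted p = 0.0260), although the call was lost without either sham blood library (adjusted p = 0.107 and 0.1005) and without either brain library (adjusted p = 0.124 and 0.140). Against tMCAO blood the log2 fold change was 4.17 ± 1.55 (edgeR adjusted p = 0.0847), and it passed with DESeq2 on the pair (4.25, adjusted p = 0.0180), with limma-voom (5.15, adjusted p = 0.0157), under T cell scaling (11.47) and without tMCAO blood replicate 1 (9.10, adjusted p = 0.0181), the only blood library with counts.

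Levels of different genes were compared per transcript length in the FPKM table. In FPKM, *Cxcr3* (330 and 287 after sham surgery, 529 and 424 in blood after tMCAO) and *Cxcr6* (299 and 217, 409 and 527) headed the receptors in blood, and they could not be ordered against each other because the libraries overlapped. In sham blood they were followed by *Ccrl2* (6.73 and 18.1 FPKM) and *Ccr6* (7.48 at most), which overlapped, *Cxcr2* (3.34 and 3.08) and *Ccr9* (2.68 and 1.09), which did not, and *Ccr1* (0 and 3.21), which overlapped with both of these, while *Ackr3* was listed at 0 in both libraries. In brain the order by FPKM was led by *Ccrl2* (333 and 656) and *Ccr1* (247 and 117), which did not overlap, followed by *Cxcr3* (4.29 and 4.13) and *Cxcr2* (3.03 and 4.44), which did, then *Cxcr6* (2.07 and 2.04) and *Ackr3* (1.09 and 2.33), which also did, *Ccr6* (0.475 and 0.581) and *Ccr9* (0.0881 and 0.0289). *Ccr2* had no value of its own in that table. For *Ccr9* the tables differed in tMCAO blood replicate 2, with 1.17 FPKM beside 2 counts, and the cause was not tested.

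**Figure D4:**
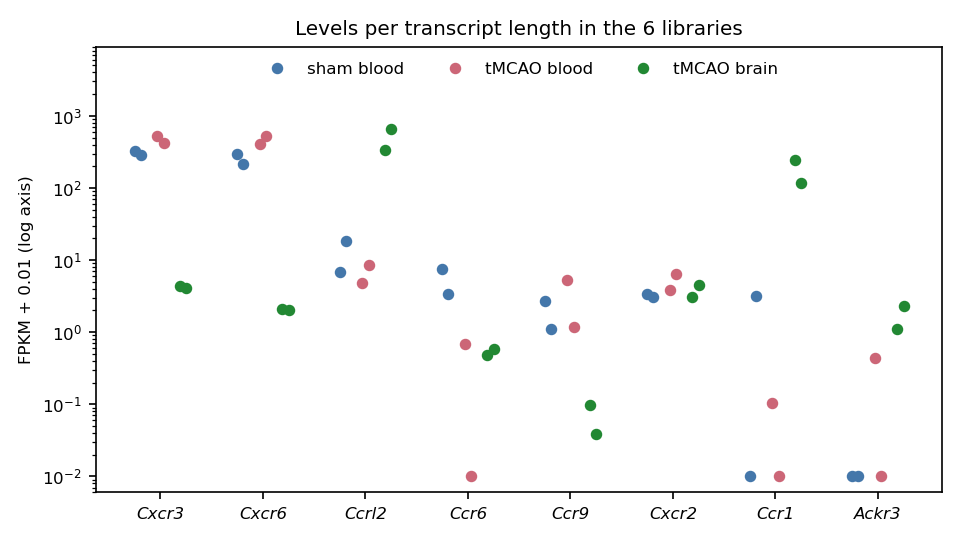
FPKM of 8 receptor genes (y axis, logarithmic, with 0.01 added so that zeros can be drawn) in the 6 libraries, colored by group, without *Ccr2*, which has no FPKM of its own. *Cxcr3* and *Cxcr6* lead in blood with 217 to 529 FPKM, and *Ccrl2* and *Ccr1* lead in brain with 117 to 656 FPKM.

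As shares of the summed CPM of the 9 receptor genes, *Cxcr3* and *Cxcr6* together made up 74.5% to 90.3% in the blood libraries and 0.622% and 0.720% in brain. *Ccr1* and *Ccrl2* made up 0.574% to 3.92% in blood and 72.9% and 86.3% in brain. The sum itself was 1095 to 1986 CPM in blood and 2311 and 2340 CPM in brain under TMM scaling, and this total depends on the scaling, whereas the shares do not. Like *Ccr1* and *Ccrl2*, 14 of 15 monocyte and macrophage genes and all 10 microglia genes rose in brain. Between the brain libraries they differed. The monocyte and macrophage sum (41510 and 33525 CPM) and *Ccr1* (948 and 459 CPM) were higher in replicate 1. The microglia sum (7963 and 17607 CPM) and *Ccrl2* (757 and 1534 CPM) were higher in replicate 2. The part of these cell types in the receptor levels was not tested. *Tmem119*, a defining microglia gene, was at 215 and 406 CPM in brain and at 0 in 3 of 4 blood libraries.

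The ligands of these receptors were listed as 20 genes, of which 15 were tested. Against sham blood, 10 rose and 2 fell in brain (18.7% and 11.8% of all tested genes), and against tMCAO blood 11 rose and 1 fell (20.4% and 13.2%). The median log2 fold change of the 15 was 5.73 and 10.34 in these comparisons, and 0 of them passed the test between the blood groups, where DESeq2 over all 6 libraries called 2 lower and limma-voom called 0. *Cxcl16*, the CXCR6 ligand, was at 0 to 0.643 CPM in blood and 795 and 688 CPM in brain, and rose by 11.96 on the log2 scale against sham blood (edgeR adjusted p = 0.000565). *Cxcl10*, the CXCR3 ligand, was at 12.9 and 18.3 CPM after sham surgery, 2.02 and 5.43 CPM in blood after tMCAO and 82.6 and 306 CPM in brain, where it rose by 3.63 (edgeR adjusted p = 0.0104) and 5.71 (edgeR adjusted p = 0.00240) against the blood groups in that order. The other CXCR3 ligands were nearly absent: *Cxcl9* had 0 counts in all 6 libraries and *Cxcl11* reached 0.368 CPM at most.

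The CCR2 ligand genes *Ccl2*, *Ccl7* and *Ccl12* all rose in brain. *Ccl2* was at 0 and 4.77 CPM after sham surgery, 0.103 and 0 CPM in blood after tMCAO, and 867 and 864 CPM in brain, and its only sizeable blood value came from the sham library that also held *Ccr1*. The CCR1 ligand genes *Ccl3*, *Ccl6* and *Ccl9* rose as well, with *Ccl3* at 15.5 to 47.5 CPM in blood and 1026 and 4004 CPM in brain. *Ccl5*, a CCR1 ligand made by effector T cells, fell in brain, with 3512 and 2914 CPM after sham surgery, 8047 and 6389 CPM in blood after tMCAO and 8.29 and 47.4 CPM in brain, while under T cell scaling its log2 fold change was 0.54 against sham blood and -0.50 against tMCAO blood. *Ppbp*, a CXCR2 ligand gene of platelets, fell in brain against sham blood, from 46.0 and 54.9 CPM to 4.05 and 14.7 CPM, with a log2 fold change of 4.93 under T cell scaling. The neutrophil attractants *Cxcl1* and *Cxcl3* had no count in blood and stood at 9.95 to 212 CPM in brain. *Ccl20*, the CCR6 ligand, had no count in any library, and *Ccl25* and the chemerin gene *Rarres2*, the ligand genes of CCR9 and CCRL2, stayed between 0.643 and 8.94 CPM and passed no test.

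**Figure D5:**
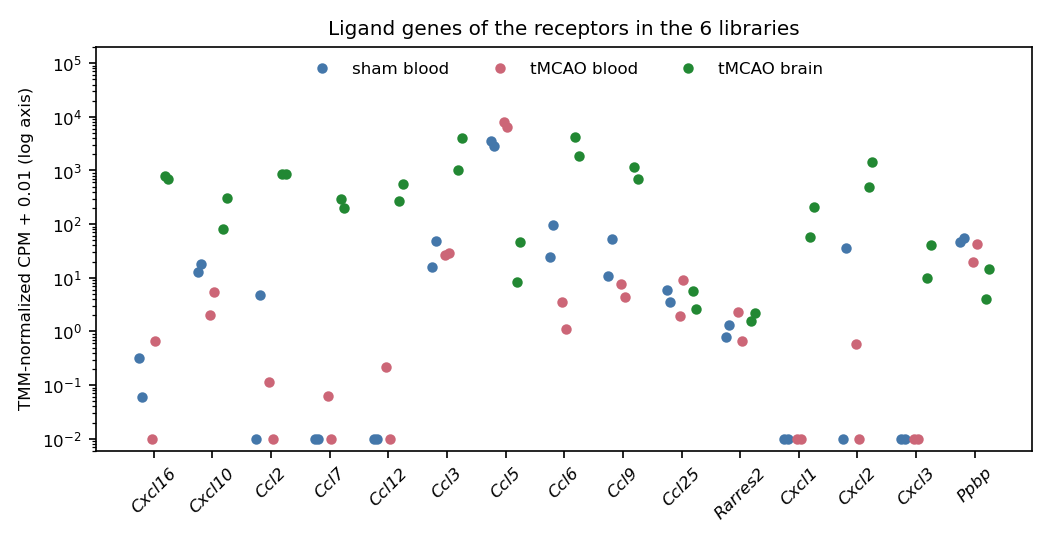
Level of the 15 tested ligand genes in TMM-normalized CPM (y axis, logarithmic, with 0.01 added so that zeros can be drawn) in the 6 libraries, colored by group and ordered by receptor. *Cxcl16*, *Ccl2*, *Ccl7* and *Ccl12* are at 199.8 CPM or more in both brain libraries and at 4.77 CPM or less in blood, and *Ccl5* is the reverse on this scale, at 2914 CPM or more in blood and 47.4 CPM or less in brain, although its log2 fold change against sham blood was 0.54 under T cell scaling.

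Of 16 other chemokine receptor genes, 8 were tested, and none passed the test between the blood groups, where DESeq2 over all 6 libraries called 1 lower and limma-voom called 0. In brain *Cx3cr1*, the fractalkine receptor of microglia and monocytes, rose against both blood groups, from 50.1 and 23.0 CPM in sham blood to 424 and 586 CPM. *Cmklr1*, the signaling receptor for chemerin, rose against sham blood only by the test (edgeR adjusted p = 0.0390, against 0.0689 for tMCAO blood), and whether these differences differ was not tested. *Cxcr4* rose against tMCAO blood, by 2.69 on the log2 scale (edgeR adjusted p = 0.0130). The lymph node homing receptors *Ccr7* and *Cxcr5* fell in both brain comparisons, *Ccr7* from 839 and 836 CPM in sham blood to 7.64 and 0.640 CPM and *Cxcr5* from 52.8 and 35.6 CPM to 0.645 and 2.83 CPM, whereas under T cell scaling the log2 fold change against sham blood was -0.80 for *Ccr7* and 2.68 for *Cxcr5*, and that against tMCAO blood 0.16 and 4.66. *Cxcr1* and *Ackr1* had no count, and *Ccr4*, *Ccr8*, *Ccr10*, *Ccr1l1*, *Ackr2* and *Ackr4* stayed at or below 0.662 CPM.

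Downstream of the receptors, 19 genes of signal transduction were listed and tested. In brain *Pik3cg* and *Pik3r6*, the catalytic and a regulatory subunit of phosphoinositide 3-kinase gamma, rose against both blood groups, whereas the leukocyte GTPase gene *Rac2* fell, from 2219 and 2059 CPM in sham blood to 458 and 453 CPM (a log2 fold change of 4.93 under T cell scaling). Against tMCAO blood *Rac1*, *Fermt3* and *Tln1* rose as well, the last pair encoding integrin activators. This gave 2 higher and 1 lower against sham blood and 5 higher and 1 lower against tMCAO blood, with median log2 fold changes of 0.38 and 0.55. Over all tested genes the shares were 18.7% and 11.8%, and 20.4% and 13.2%. An unadjusted p under 0.05 was found for 7 and 9 of the 19, against 43.2% and 45.8% of all tested genes. Under T cell scaling all 19 were called higher in both, as were 11819 and 11856 of all 12424 tested genes. Between the blood groups edgeR and DESeq2 called 0 of the 19.

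Among 14 genes of receptor desensitization and RGS proteins, which shorten G protein signaling, 4 rose and 2 fell in brain against sham blood, and 6 rose and 1 fell against tMCAO blood. Of all tested genes 18.7% rose and 11.8% fell against sham blood, and 20.4% rose and 13.2% fell against tMCAO blood. *Arrb2*, which encodes a beta-arrestin, rose from 29.9 and 34.4 CPM in sham blood to 101 and 83.0 CPM in brain. *Rgs1* rose from 628 and 625 CPM to 1615 and 2829 CPM, and *Rgs10*, an RGS gene of microglia and macrophages, from 58.9 and 64.3 CPM to 272 and 384 CPM. *Grk3* also rose in both comparisons, *Arrb1* and *Rgs2* passed the test against tMCAO blood and not against sham blood, a difference that was not tested, and *Rgs16* fell in both and *Grk6* against sham blood (under T cell scaling the log2 fold changes against sham blood were 2.26 and 5.57). edgeR called 0 of the 14 between the blood groups and DESeq2 over all 6 libraries 1.

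Among factors of type 1 T cells, in which T-bet drives *Cxcr3*, 10 genes were tested. Between the blood groups none passed (edgeR, DESeq2 and limma-voom each called 0). In brain against sham blood *Tbx21*, *Eomes*, *Stat4*, *Il12rb2* and *Ifng* fell and *Id2* rose, while under T cell scaling *Stat4* and *Il12rb2* had log2 fold changes of 1.48 and 2.45. *Tbx21*, which encodes T-bet, was at 51.5 and 62.4 CPM after sham surgery, 84.9 and 29.4 CPM in blood after tMCAO and 0 and 0.457 CPM in brain. *Stat4*, at 506 and 480 CPM in sham blood and 6.45 and 11.5 CPM in brain, fell by 5.78 on the log2 scale under TMM (edgeR adjusted p = 0.000246), and *Tbx21*, *Eomes* and *Ifng* had log2 fold changes of -0.64, -0.65 and -0.68 under T cell scaling.

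The genes nearest in pattern to each receptor were found over the 6 libraries as the smallest root mean square difference of log2 CPM after centering each gene. Nearest to *Cxcr3* were *Gimap1* (0.15) and *Gramd3* (0.22), and nearest to *Cxcr6* were *Spo11* (0.27) and *Lat* (0.33), with *Cxcr3* itself at 0.41 from *Cxcr6*. *Ccr1* was closest to its fellow myeloid genes *Ccl2* (0.61) and *Cd14* (1.06), and only 1 tested gene was within a difference of 1. *Ccrl2* was closest to *Tmem176b* (0.21) and *Csf1* (0.25). *Ccr6* lay nearest to *Xkrx* and *Srpk3* (0.60 and 0.67), *Ccr9* to *Trim46* and *Rasal1* (0.53 and 0.66), *Ccr2* to *Pi4k2b* and *Tbc1d1* (0.10 and 0.12), *Cxcr2* to *Rdh5* and *Mrpl2* (0.11 and 0.12), and *Ackr3* to *Zfp629* and *4933431E20Rik* (0.15 and 0.23). For *Ccr2* and *Cxcr2*, whose levels varied little, 6804 and 7326 of the tested genes were within a difference of 1, so that these names carry little information.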

How the data were processed

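RNA of CD8+ TRLs sorted by flow cytometry (500 to 1000 cells per sample) was amplified with SMART-Seq and sequenced as Nextera XT libraries with paired reads of 75 bases. The authors trimmed the reads, checked them with FastQC, mapped them to GRCm38 (mm10) with TopHat and deposited raw counts of reads per gene symbol. The authors also deposited FPKM values. The study's methods name a TopHat and Cufflinks workflow, Ensembl gene identifiers and R/Bioconductor for the counts and FPKM, without the package or the annotation release. No column of a sample outside the 6 was present.

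From the count table, 5 closing lines that name no gene and 27 lines with a date in place of a symbol were dropped. The closing lines held mainly reads outside features (43.0% to 45.6% of all reads) and reads without a unique position (14.0% to 22.0%), and the date lines 0.0804% to 0.140%. Genes with at least 10 counts scaled to library size in 2 libraries (0.612 CPM) and 15 in total were kept, leaving 12424. Counts were fitted with edgeR 4.0.16 (R 4.3.3; TMM scaling, quasi-likelihood test) on all 6 libraries in 1 model with 3 groups, and p-values were Benjamini-Hochberg adjusted over all tested genes in each comparison. Called means an adjusted p under 0.05 and a fold over 2. SE is the size of the log2 fold change divided by the square root of F. The SD of replicate log2 ratios was 1.07, 1.59 and 0.988 for sham blood, tMCAO blood and brain, so the shared spread may be too small for tMCAO blood. With 2 libraries per group no permutation test reaches 0.05, and p-values come from these models.

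Alternatives were DESeq2 1.42.0 and edgeR on the groups compared, DESeq2 and limma-voom (limma 3.58.1) on all libraries, scaling by library size or by the T cell genes, other filters and thresholds, limma on log2(FPKM + 1) or log2(FPKM + 0.1), a replicate block, and leaving out each library. FPKM lines that join symbols or lack a value (1177 and 1854 of 24572) were not tested, which removes *Ccr2*. A gene without counts allows up to 3, which is 0.153 to 0.276 CPM per library. Such limits cover counting error only, since reads are not independent molecules. Tested on simulated counts, the procedure recovered 67.2% of 67 genes changed 4-fold between the blood groups and 2.99% of 67 changed 2-fold (11634 genes), with 4 false calls. The simulation gave every gene and group the same fixed spread, not fitted to these data, and changed only well-counted genes. Its shares therefore do not give the power for tMCAO blood, whose replicates differed most, or for receptor genes with low counts.

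The 9 genes and the 18 gene lists, 188 of whose 195 genes were in the count table, were chosen with earlier results of these data known. Some list genes are not reported here. Genes named are the 9, the other chemokine receptors, the sort markers, up to 4 genes per further list and comparison with the smallest p, list genes at 0 and the 2 nearest in pattern. Outside this rule, *Ccl3*, *Ccl25*, *Cxcl1*, *Cxcl3*, *Cxcl11*, *Ppbp*, *Rarres2*, *Arrb1*, *Grk6*, *Id2*, *Tln1*, *Chil3* and *Lyz2* were named after their values were seen, as were *Fyco1* and *Lztfl1*, which overlap members. Positions are from GENCODE M21, promoter sequences from RefSeq (GRCm38.p6), and all 9 genes matched. Python 3.11.15 with pandas 2.3.3 and matplotlib 3.10.9 wrote the tables and figures.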

Additional observations from a re-analysis of the deposited data

How the results depend on the processing

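Of 521 values of the 9 receptor genes under the alternatives, 454 kept their direction and their side of the threshold, 16 lost the call, 31 gained one and 20 reversed. T cell scaling shifted the log2 fold changes of all genes by a median of 7.16 (brain against sham blood), 7.28 (brain against tMCAO blood) and -0.12 (blood). It raised the receptor genes called higher in brain from 3 to 7 against sham blood and from 3 to 6 against tMCAO blood. Those called lower went from 2 to 0 in both. Under it the log2 fold change against sham blood became 1.00 for *Cxcr6*, 1.53 for *Cxcr3*, 4.11 for *Ccr6* and 2.11 for *Ccr9*, and against tMCAO blood 0.17 for *Cxcr6*, 1.03 for *Cxcr3*, 1.81 for *Ccr9* and 7.25 for *Cxcr2*. With library size alone *Cxcr2* was at -0.11 in brain against sham blood, and with limma-voom at 0.014 against tMCAO blood, while *Ccr9* between the blood groups was at -1.91 with limma-voom. DESeq2 called 1 receptor gene lower between the blood groups, over all 6 libraries and in the pair alone. In brain against sham blood 4 were lower with DESeq2 and with edgeR on the pair alone, and 1 was higher at an adjusted p under 0.01.

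Leaving out each replicate in turn, where edgeR assumes that a lone sample varies like the other groups, gave 0 to 1 receptor genes higher and 0 to 1 lower between the blood groups, 1 to 3 higher and 2 to 4 lower in brain against sham blood, and 2 to 5 higher against tMCAO blood. Between the blood groups the log2 fold change then ranged from -9.13 to 3.86 for *Ccr1*, from -6.01 to 1.36 for *Ccr9*, from -1.38 to 0.081 for *Ccrl2* and from -0.11 to 0.98 for *Cxcr2*, and against tMCAO blood from -6.76 to 1.18 for *Ccr9* and from -0.53 to 0.46 for *Cxcr2*. Without tMCAO blood replicate 1 *Ackr3* had no blood value.

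The labels do not say whether same-numbered libraries were paired. Across genes, their deviations correlated at -0.029, -0.021 and 0.0093, which cannot decide this because each group gives a single difference between replicates. With a replicate block 0 and 0, 3 and 2, and 3 and 2 receptor genes were called higher and lower in the 3 comparisons, *Ccr9* between the blood groups was at -1.33, and over all genes 0 and 72, 1949 and 1310, and 2168 and 1377 were called.

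Over all genes, 0 were called higher and 102 lower between the blood groups, against 13 and 359 with DESeq2 over all 6 libraries, 5 and 208 with DESeq2 on the pair, 0 lower with edgeR on the pair, 22 lower with limma-voom, 3 and 252 with T cell scaling, 1 and 156 without the filter, 38 lower at an adjusted p under 0.01, 5 to 14 higher and 9 to 52 lower in FPKM, and 0 to 284 higher and 0 to 469 lower leaving out a replicate. In brain against sham blood the 2326 higher and 1471 lower became 11819 and 13 with T cell scaling. With library size alone 2712 were lower, and in FPKM 1337 to 1656 were higher and 1511 to 1858 lower. At an adjusted p under 0.01 the counts were 1125 and 737, and both also moved when a replicate was left out. Against tMCAO blood the 2530 and 1640 became 11856 and 9 with T cell scaling. Library size alone gave 2866 lower, and FPKM gave 1428 to 1860 higher and 1659 to 2046 lower. At an adjusted p under 0.01 the counts were 1380 and 814, and both again moved without a replicate. Where no construction of the alternative shows it, the cause was not tested. *Ccr2* has no FPKM test. Depth limits *Ackr3*, *Ccr1*, *Ccr6* and *Ccr9*, whose lowest libraries lie at or under the limit that 0 counts allow.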
